A study of Mus musculus with 9 samples.

Results

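The genes described here take part in the import of transferrin-bound iron into the erythroblast or in iron sensing: Tfrc, Tfr2, Slc11a2, Steap3, Exoc6, Snx3 and Hfe. They were chosen by name, by what they are known to do, and every array probe whose RefSeq transcript maps to one of the 7 symbols was kept. This gave 11 of the 55681 non-control probes and 7 of the 20018 named genes. All 11 probes and all 7 genes passed the filter on dim probes, among 34480 probes and 14504 genes that did. Tfrc had 3 probes, Slc11a2 and Steap3 had 2 each, and each of the other genes had 1.

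Gene expression was measured on 9 single-colour arrays of erythroblasts, the nucleated precursors of red cells, sorted as "Subset II" from bone marrow. The mice were wild type, of strain C57BL/6J and labelled female, and there were 3 arrays in each of 3 groups: 7 weeks of low iron diet after weaning, 3 weeks of low iron diet after weaning, and normal diet. How old the mice on normal diet were is not stated in the labels. The submitters call the samples of a group biological replicates, and whether a sample was 1 mouse or a pool was not stated.

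Erythroblasts take up most of the iron of the body, because hemoglobin needs it. Iron-loaded transferrin binds transferrin receptor 1 (the product of Tfrc) at the surface, the complex is taken in through clathrin-coated pits, and the iron is released in the acid endosome, reduced by Steap3 and moved to the cytosol by Slc11a2, also called DMT1. The empty transferrin and its receptor are then sorted back to the surface, a step that needs Snx3 and, in the mouse, Exoc6. Tfr2 and Hfe are known as parts of iron sensing: Tfr2 binds iron-loaded transferrin and associates with the erythropoietin receptor, and Hfe binds transferrin receptor 1. The Tfrc mRNA carries iron-responsive elements, and the iron regulatory proteins that bind them protect it when iron is low.

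The promoters of the 3 genes that differed most clearly between 7 and 3 weeks (Exoc6, Snx3 and Hfe) are shown with that of Tfrc, the receptor the pathway is named for. They come from RefSeq on build GRCm38.p6, each as the 250 bases before an annotated transcription start, 5′ to 3′ on the gene's own strand. The windows are chr16:32608646-32608895 for Tfrc, chr19:37550168-37550417 for Exoc6 (a start inside the annotated gene span), chr10:42501804-42502053 for Snx3, all on the plus strand, and chr13:23710855-23711104 on the minus strand for Hfe. Capitals mark every match, on either strand, to the motifs searched.
Tfrc: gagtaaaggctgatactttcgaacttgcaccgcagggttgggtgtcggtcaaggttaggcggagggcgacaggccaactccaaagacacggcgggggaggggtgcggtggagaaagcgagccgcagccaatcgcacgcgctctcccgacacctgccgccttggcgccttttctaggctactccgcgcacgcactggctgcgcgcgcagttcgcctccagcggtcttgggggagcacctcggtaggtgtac
Exoc6: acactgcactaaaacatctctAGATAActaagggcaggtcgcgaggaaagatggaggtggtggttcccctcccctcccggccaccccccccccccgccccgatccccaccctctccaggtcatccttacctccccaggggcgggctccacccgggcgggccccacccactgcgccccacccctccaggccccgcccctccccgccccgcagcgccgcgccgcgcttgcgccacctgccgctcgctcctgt
Snx3: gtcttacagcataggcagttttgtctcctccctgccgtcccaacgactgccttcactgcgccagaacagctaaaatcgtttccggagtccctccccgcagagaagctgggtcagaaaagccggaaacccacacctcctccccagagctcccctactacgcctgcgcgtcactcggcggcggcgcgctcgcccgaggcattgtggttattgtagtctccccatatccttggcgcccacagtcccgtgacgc
Hfe: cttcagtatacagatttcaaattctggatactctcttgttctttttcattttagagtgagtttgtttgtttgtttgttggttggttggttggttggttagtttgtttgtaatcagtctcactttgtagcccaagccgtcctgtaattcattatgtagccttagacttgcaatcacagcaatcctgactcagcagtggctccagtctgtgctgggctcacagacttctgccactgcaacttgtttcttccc

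The motifs were AGATAA (the GATA factor motif), ACGTG (the core of the hypoxia response element), TTCNNNGAA (the Stat5 motif) and CACGTG (an E-box, which contains ACGTG). Among 32851 such promoter windows of the genome, 9.99% held AGATAA, 16.6% ACGTG, 7.02% TTCNNNGAA and 6.02% CACGTG. Of the 4 windows shown, that of Exoc6 held AGATAA, 229 bases before the start, and the other 3 held no match. The window of Tfrc ends 2 bases into an ACGTG match that continues past the annotated start at 32608896 of chromosome 16. That stretch of 30 bases, chr16:32608882-32608911 on the plus strand, is given with the match at 32608894 to 32608898 in capitals.
Tfrc across its start: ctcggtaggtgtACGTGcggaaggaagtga

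RefSeq windows were found for 6 of the 7 genes. Slc11a2 is named only. Tfrc had 2 windows, and the one not shown, chr16:32608872-32609121, held that ACGTG match in full, 228 bases before its own start. The windows of Tfr2 held ACGTG in 2 of 3, and those of Steap3 held AGATAA in 1 of 4. A match is a run of letters and does not show that a factor binds there.

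The 7 week arrays differed from the others as arrays. The 75th percentile of signal was 792 to 1087 on them, against 1677 to 1837 at 3 weeks and 1499 to 1616 on normal diet, and 45.2% to 53.6%, 56.8% to 70.8% and 65.5% to 66.3% of spots were well above background. Spike-in control RNAs averaged 4.44 to 5.35 above the 75th percentile (log2) at 7 weeks, 1.10 to 1.57 at 3 weeks and 0.50 to 1.74 on normal diet. Over the tested genes, arrays of a group correlated at r of 0.909 to 0.958 at 7 weeks, 0.976 to 0.98 at 3 weeks and 0.981 to 0.987 on normal diet. These values move with every 7 week difference below, and their part in it was not tested. Normal diet replicates 1 and 2 had Y-linked Eif2s3y at log2 levels of 5.12 and 4.82, against -3.77 on replicate 3, which goes against their label. On the low iron arrays Eif2s3y was at -6.61 to -3.98, not well above background on any. This signal therefore ran in part with diet in both comparisons with normal diet, and its part in them was not tested. Differences from normal diet replicate 3 alone are given for each of the 7 genes. In that setting 18 of 14991 genes passed at 7 weeks and 5 at 3 weeks. Each group lay on a slide of its own, so slide and diet cannot be told apart in any comparison. Levels below are log2 signal minus the array's 75th percentile, compared only within a probe. A gene is represented by its brightest probe, and p-values are from limma, adjusted over all genes (or, for single probes, all probes) with a threshold of 0.05. Erythroid markers were present: the summed log2 level of 10 such genes was 11.29 to 11.89 at 7 weeks, 10.79 to 10.87 at 3 weeks and 10.96 to 11.06 on normal diet. In these bulk samples, fewer cells of a type and less RNA per cell cannot be told apart.

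At 7 weeks against normal diet, Slc11a2 and Exoc6 fell, 2 of the 7 genes, where 29.5% of all genes passed and 18.7% fell. After 3 weeks against normal diet Exoc6 rose, 1 of the 7 genes, where 11.4% of all genes passed and 3.52% rose. Between the times, Exoc6, Snx3 and Hfe were lower at 7 weeks than at 3 weeks, 3 of the 7 genes, where 37.2% of all genes passed and 19.6% were lower. Arrays of the 2 groups did not overlap for 4 of the 7 genes at 7 weeks and 4 at 3 weeks against normal diet, and for 3 between the times, where 47.4%, 49.5% and 48.4% of all genes did not. The median difference of the 7 genes was -0.86 at 7 weeks and 0.35 at 3 weeks against normal diet, and -0.46 between the times, beside -0.27, -0.17 and -0.13 over all genes. With no scaling between arrays the median of all genes was -1.07 at 7 weeks against normal diet and -1.09 between the times, a shift that unscaled differences carry.

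**Figure D1:**
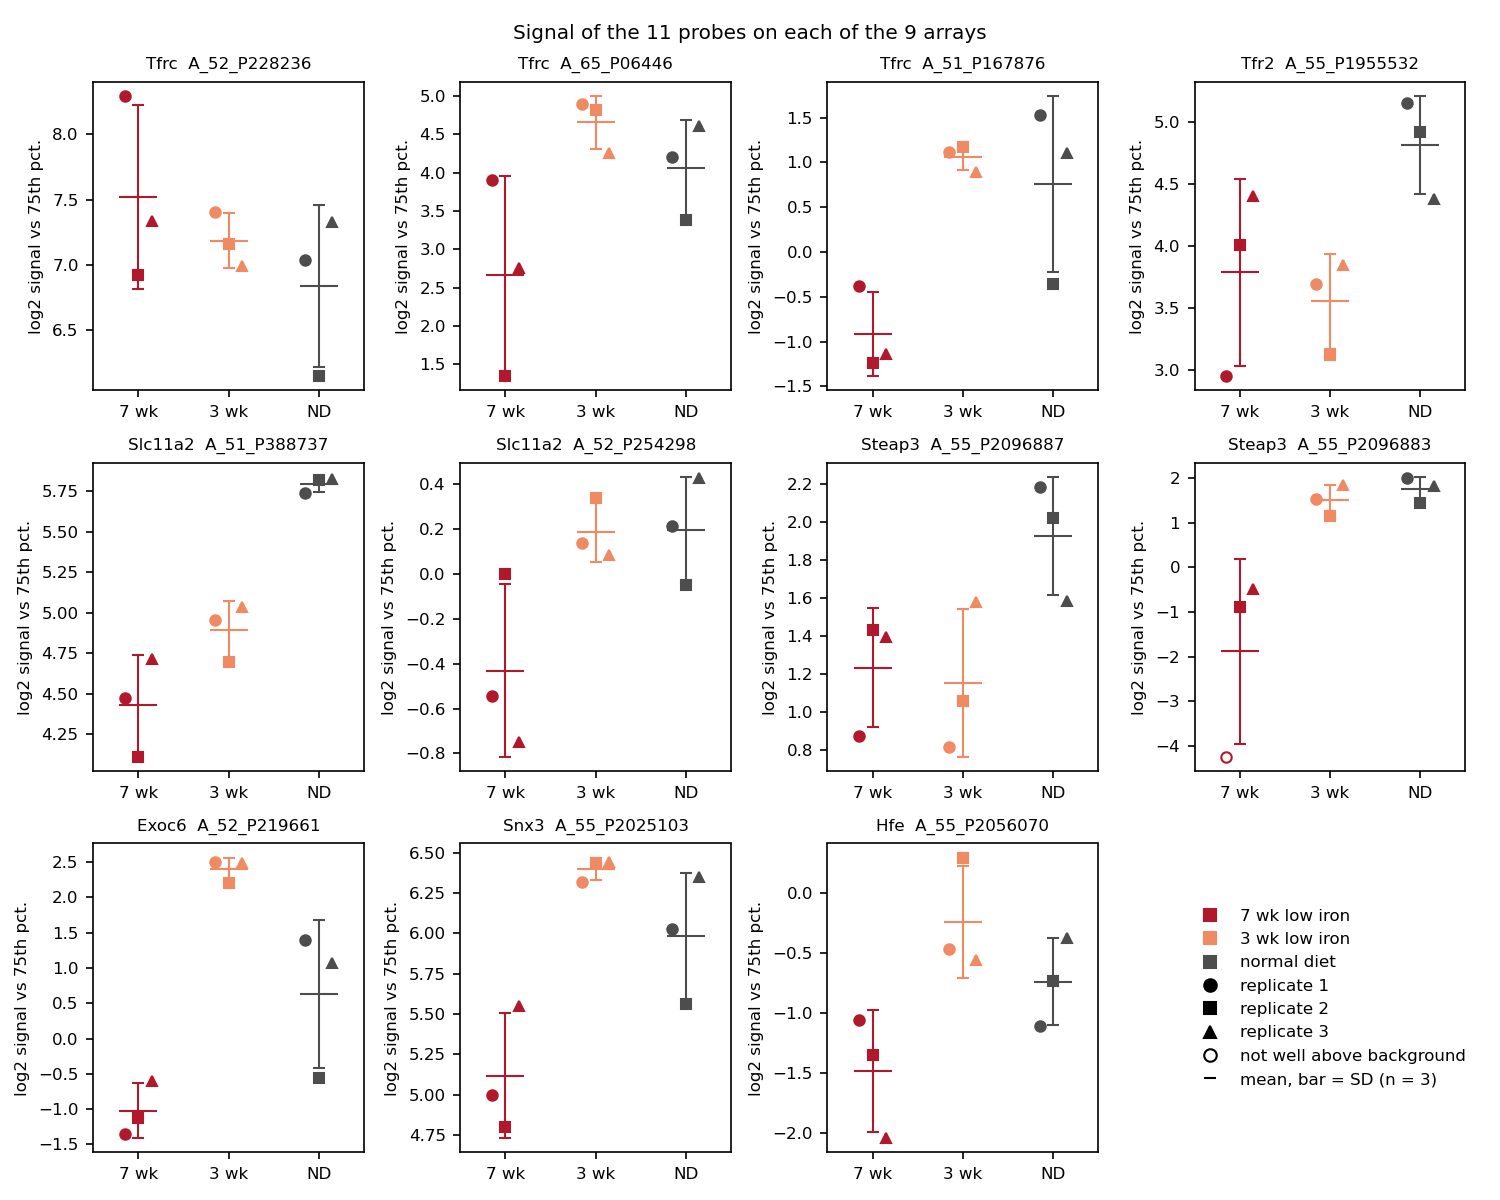
Log2 signal minus the array's 75th percentile (vertical axes, each with its own range) of the 11 probes on the 9 arrays, grouped as 7 weeks of low iron diet, 3 weeks of low iron diet and normal diet (ND). Symbols stand for replicates, an open symbol for a value not well above background, and lines for the mean with its SD (n = 3). Exoc6 separates all 3 groups on the axis, with 3 weeks highest and 7 weeks lowest.

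Tfrc, the gene of transferrin receptor 1, gave no call by the probe that represents it. That probe, A_52_P228236, is spotted 10 times on each array and is the brightest of the 3, at 12.9% to 36.6% of the scanner's saturation value. Its levels were 8.30, 6.92 and 7.34 at 7 weeks, 7.41, 7.16 and 6.99 at 3 weeks, and 7.04, 6.15 and 7.33 on normal diet. The 3 groups overlapped, with replicate 1 high among the 7 week arrays and replicate 2 low among the normal diet arrays. The mean was 7.52 ± 0.70 at 7 weeks, 7.19 ± 0.21 at 3 weeks and 6.84 ± 0.62 on normal diet (SD, n = 3 each). The difference was 0.68 ± 0.43 (SE) at 7 weeks (limma, adjusted p = 0.247) and 0.35 ± 0.43 at 3 weeks (limma, adjusted p = 0.621) against normal diet, and 0.33 ± 0.43 between 7 and 3 weeks (limma, adjusted p = 0.567). Against normal diet replicate 3 alone it was 0.19 at 7 weeks (limma, adjusted p = 0.88) and -0.15 at 3 weeks (limma, adjusted p = 0.956). The order of the 3 groups on this probe was within the spread of their arrays.

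The other Tfrc probes did not follow the brightest one at 7 weeks. Probe A_51_P167876 was at -0.38, -1.24 and -1.13 at 7 weeks, at 1.12, 1.17 and 0.89 at 3 weeks and at 1.53, -0.35 and 1.11 on normal diet. The 7 week arrays lay below all others, by a narrow margin to normal diet replicate 2. The difference was -1.68 ± 0.47 at 7 weeks against normal diet (limma, adjusted p = 0.028) and -1.98 ± 0.47 against 3 weeks (limma, adjusted p = 0.0105). Against normal diet the adjusted p was 0.104 without normal diet replicate 1, 0.0946 without normal diet replicate 3, 0.0716 without 7 week replicate 2 and 0.0614 without 7 week replicate 3, and against normal diet replicate 3 alone the difference was -2.03 (limma, adjusted p = 0.0937). Probe A_65_P06446 was at 3.90, 1.35 and 2.75 at 7 weeks, at 4.89, 4.82 and 4.25 at 3 weeks and at 4.20, 3.38 and 4.60 on normal diet. Its 7 week arrays were all below the 3 week arrays and overlapped those of normal diet. It fell at 7 weeks against 3 weeks (-1.99 ± 0.60; limma, adjusted p = 0.028), and the difference from normal diet was -1.39 ± 0.60 (limma, adjusted p = 0.108). The fall between the times lost its call without any one of the 3 week arrays and without 7 week replicate 2 or 3 (limma, adjusted p from 0.0518 to 0.0831), and the 7 week difference from normal diet passed without 7 week replicate 1 (limma, adjusted p = 0.019). Against normal diet replicate 3 alone this probe differed by -1.93 at 7 weeks (limma, adjusted p = 0.265), and at 3 weeks by 0.0511, beside 0.59 against all 3 normal diet arrays.

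The distance between the brightest Tfrc probe and each of the others was therefore compared between the groups. The brightest minus A_51_P167876 averaged 8.44 ± 0.26 at 7 weeks, 6.13 ± 0.15 at 3 weeks and 6.08 ± 0.51 on normal diet (SD, n = 3 each). This distance was 2.36 larger at 7 weeks than on normal diet, with every 7 week array above every normal diet array (two-sided exact permutation test, p = 0.1, the smallest that 3 arrays against 3 allow). The brightest minus A_65_P06446 averaged 4.85 ± 0.64 at 7 weeks, 2.53 ± 0.20 at 3 weeks and 2.78 ± 0.05 on normal diet, again with no overlap of 7 weeks with either (exact permutation p = 0.1). Between the 2 dimmer probes, A_65_P06446 minus A_51_P167876 averaged 3.59 ± 0.89 at 7 weeks, where it ran from 2.59 to 4.28, 3.59 ± 0.21 at 3 weeks and 3.30 ± 0.55 on normal diet. The groups overlapped (exact permutation p = 0.6 for 7 weeks against normal diet, where p cannot go below 0.1). With 15 such tests over the 3 genes with several probes, the smallest adjusted p was 0.214. Over the 9 arrays, the dimmer probes correlated with each other at r = 0.88 and with the brightest at 0.02 and 0.24. Positions of the probes on the transcript were not used here.

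Spacing of this size was not rare on the array. Among 3386 genes with several tested probes, 4014 probes stood beside a brighter one. At 7 weeks against normal diet, 29.6% of these had the opposite sign to the brightest probe of their gene and 12.3% differed from it by more than 2 on the log2 scale. Their median was 0.19 below the brightest probe, and 58.6% lay below it. Within Tfrc the sign at 7 weeks also moved with the scaling: the brightest probe, at 0.68 after scaling to the 75th percentile, was at -0.13 with no scaling between arrays, 0.25 after quantile normalization and 0.64 in the deposited series table. The deposited table followed the 75th percentile values closely, at r of 0.997 to 0.999 on each array. The mean over the 3 probes was -0.80.

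**Figure D2:**
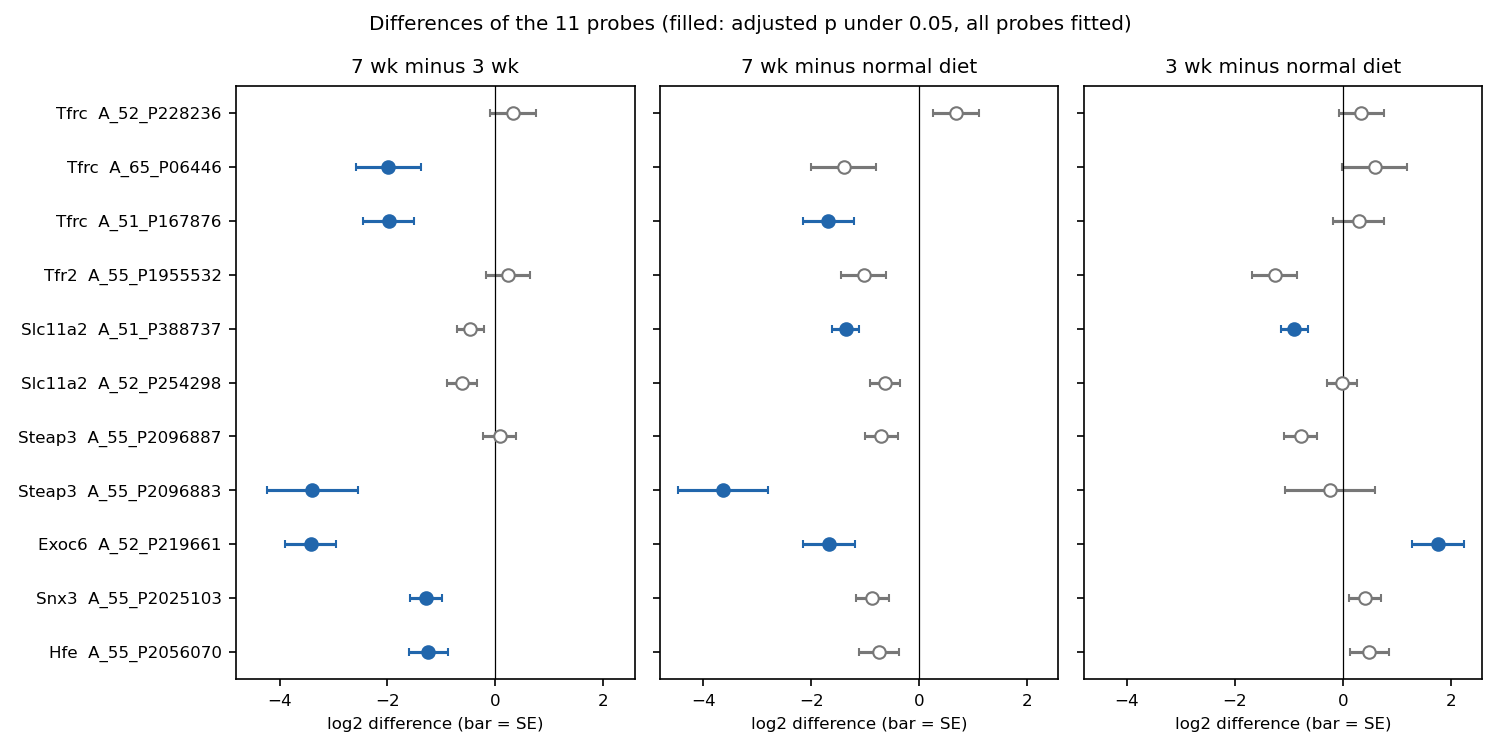
Log2 difference of each of the 11 probes (horizontal axes, bars are the SE from limma, 3 arrays in each group) at 7 weeks against 3 weeks, 7 weeks against normal diet and 3 weeks against normal diet. Filled points passed an adjusted p of 0.05 over all probes, 6, 4 and 2 of the 11 in the 3 panels.

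Tfr2, the second transferrin receptor, was lower on low iron diet by its 1 probe, short of the threshold. Its levels were 2.95, 4.01 and 4.40 at 7 weeks, 3.70, 3.12 and 3.85 at 3 weeks, and 5.15, 4.92 and 4.38 on normal diet. All 3 week arrays lay below all normal diet arrays, and 7 week replicate 3 just above the lowest of normal diet. The difference from normal diet was -1.03 ± 0.42 at 7 weeks (limma, adjusted p = 0.0909) and -1.26 ± 0.42 at 3 weeks (limma, adjusted p = 0.0807), and 7 weeks differed from 3 weeks by 0.23 ± 0.42 (limma, adjusted p = 0.687). These tests moved with the setting, and passed in 3 of 19 other settings at 3 weeks and 2 of 19 at 7 weeks. Without 7 week replicate 1 the 3 week difference stayed at -1.26 and passed (limma, adjusted p = 0.0207). It also passed with only the 2 groups compared (limma, adjusted p = 0.0191) and with normexp background treatment (-1.43; limma, adjusted p = 0.0481). The 7 week difference passed without 7 week replicate 3 (-1.34; limma, adjusted p = 0.0449) and with no scaling between arrays (-1.83; limma, adjusted p = 0.0133). The differences from normal diet replicate 3 alone were -0.59 at 7 weeks (limma, adjusted p = 0.629) and -0.83 at 3 weeks (limma, adjusted p = 0.692).

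Hfe, the receptor's partner that limits transferrin binding, was lower at 7 weeks than at 3 weeks. It had levels of -1.06, -1.35 and -2.04 at 7 weeks, -0.47, 0.29 and -0.56 at 3 weeks, and -1.10, -0.73 and -0.38 on normal diet. The 7 week arrays were below the 3 week arrays with no overlap, and both overlapped normal diet. Hfe fell 2.36-fold between the times, a log2 difference of -1.24 ± 0.37 (limma, adjusted p = 0.0274). The adjusted p was 0.0533 without 3 week replicate 1, 0.0938 without 3 week replicate 2 and 0.0745 without 7 week replicate 3. Against normal diet the difference was -0.74 ± 0.37 at 7 weeks (limma, adjusted p = 0.153) and 0.50 ± 0.37 at 3 weeks (limma, adjusted p = 0.401), so the test told neither pair of neighbours in the order of levels apart. Against normal diet replicate 3 alone these were -1.10 (limma, adjusted p = 0.318) and 0.13 (limma, adjusted p = 0.96).

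Steap3, the ferrireductase of the endosome, had 2 probes that differed at 7 weeks. The brighter, A_55_P2096887, was at 0.87, 1.43 and 1.39 at 7 weeks, at 0.81, 1.06 and 1.58 at 3 weeks, and at 2.18, 2.02 and 1.58 on normal diet. Both low iron groups were below normal diet, narrowly at 3 weeks, and overlapped each other. The differences from normal diet, -0.70 ± 0.31 at 7 weeks (limma, adjusted p = 0.12) and -0.78 ± 0.31 at 3 weeks (limma, adjusted p = 0.135), did not pass, and 7 weeks differed from 3 weeks by 0.08 ± 0.31 (limma, adjusted p = 0.861). This probe differed from normal diet replicate 3 alone by -0.35 at 7 weeks (limma, adjusted p = 0.713) and by -0.43 at 3 weeks (limma, adjusted p = 0.809). The other probe, A_55_P2096883, was at -4.25, -0.90 and -0.50 at 7 weeks, at 1.54, 1.15 and 1.84 at 3 weeks and at 1.98, 1.44 and 1.82 on normal diet. All 7 week arrays were below all others, and replicate 1 was not well above background, so 2 of the 3 arrays measured it. By this probe Steap3 fell at 7 weeks, with differences of -3.63 ± 0.84 from normal diet (limma, adjusted p = 0.014) and -3.39 ± 0.84 from 3 weeks (limma, adjusted p = 0.0121). The fall against normal diet had an adjusted p of 0.0549 without normal diet replicate 1, and against normal diet replicate 3 alone it was -3.70 (limma, adjusted p = 0.183). It was -2.45 without 7 week replicate 1. The brighter minus the dimmer probe was 2.33 and 1.89 on 7 week replicates 2 and 3, which measured both, and 5.12 on replicate 1, where the dimmer probe gives only a bound. It averaged -0.36 ± 0.32 at 3 weeks and 0.18 ± 0.41 on normal diet (SD, n = 3 each), and its highest value on these 6 arrays was 0.58.

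Slc11a2, the endosomal iron transporter, fell at 7 weeks by the probe that represents it. Probe A_51_P388737 was at 4.47, 4.11 and 4.72 at 7 weeks, at 4.95, 4.70 and 5.04 at 3 weeks, and at 5.74, 5.82 and 5.82 on normal diet. Every low iron array was below every normal diet array, and the normal diet arrays spanned 0.08. The level fell 2.57-fold at 7 weeks, a log2 difference of -1.36 ± 0.26 (limma, adjusted p = 0.00697). The call held without each of the 9 arrays in turn, with differences from -1.51 to -1.20, and the value against normal diet replicate 3 alone was -1.39 (limma, adjusted p = 0.157). At 3 weeks the difference was -0.90 ± 0.26, which missed the threshold over all genes (limma, adjusted p = 0.0533) and passed it over all probes (limma, adjusted p = 0.0462). Over probes it was lost without any one array of normal diet or of 3 weeks (limma, adjusted p from 0.0829 to 0.145), and over genes it passed without any one 7 week array (limma, adjusted p of 0.0293, 0.0386 and 0.048). The 3 week difference from normal diet replicate 3 alone was -0.93 (limma, adjusted p = 0.487). The 7 week level differed from that at 3 weeks by -0.46 ± 0.26 (limma, adjusted p = 0.185).

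The second Slc11a2 probe, A_52_P254298, was at -0.54, -0.00099 and -0.75 at 7 weeks, at 0.14, 0.34 and 0.09 at 3 weeks, and at 0.21, -0.05 and 0.43 on normal diet. Its 7 week arrays were below the 3 week arrays and overlapped normal diet by 1 array. The difference from normal diet was -0.63 ± 0.28 at 7 weeks (limma, adjusted p = 0.114) and -0.01 ± 0.28 at 3 weeks (limma, adjusted p = 0.987). Between the 2 probes the distance was 4.86 ± 0.69 at 7 weeks, 4.71 ± 0.31 at 3 weeks and 5.60 ± 0.24 on normal diet (SD, n = 3 each), and the 3 week and normal diet arrays did not overlap (exact permutation p = 0.1).

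**Figure D3:**
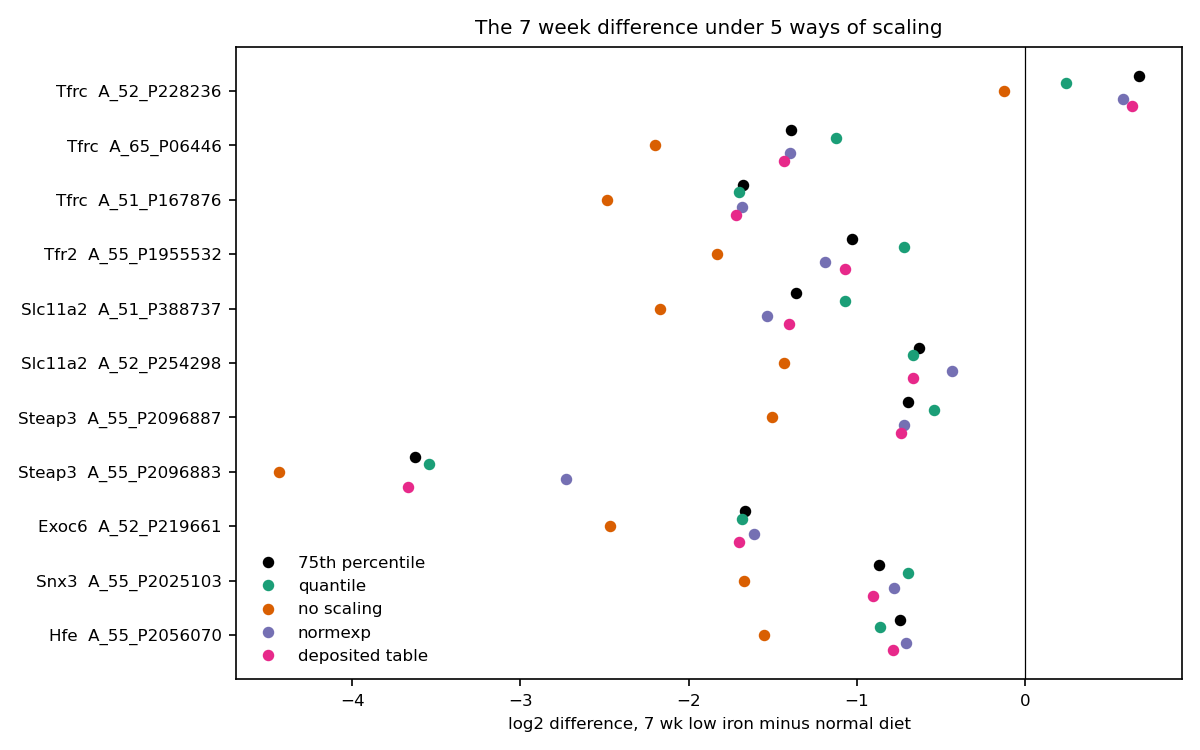
Log2 difference at 7 weeks of low iron diet minus normal diet (horizontal axis) of the 11 probes under 5 ways of scaling or background treatment, each colour one of them. With no scaling between arrays every probe was below 0, the brightest Tfrc probe at -0.13. In the 4 other ways that probe was above 0 and the other 10 were below.

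Snx3, a sorting nexin that directs the receptor from the endosome back to the surface, was lowest at 7 weeks. Its levels were 5.001, 4.80 and 5.55 at 7 weeks, 6.32, 6.44 and 6.44 at 3 weeks, and 6.03, 5.57 and 6.35 on normal diet. The 7 week arrays were below all others, with 7 week replicate 3 just under normal diet replicate 2. Snx3 fell 2.43-fold at 7 weeks against 3 weeks, a log2 difference of -1.28 ± 0.30 (limma, adjusted p = 0.011), and held that call without each array in turn. Against normal diet the difference was -0.86 ± 0.30 at 7 weeks (limma, adjusted p = 0.0599) and 0.42 ± 0.30 at 3 weeks (limma, adjusted p = 0.391). The 7 week difference passed without 7 week replicate 3 (-1.08; limma, adjusted p = 0.0322). Set against normal diet replicate 3 alone it was -1.23 at 7 weeks (limma, adjusted p = 0.196) and 0.0483 at 3 weeks (limma, adjusted p = 0.984).

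Exoc6, a subunit of the exocyst that tethers recycling vesicles to the plasma membrane, changed most of the 7 genes by their brightest probes. A mutation of the gene causes the anemia of the hemoglobin deficit mouse, in which transferrin recycling is slow. Levels were -1.35, -1.13 and -0.60 at 7 weeks, 2.50, 2.21 and 2.49 at 3 weeks, and 1.39, -0.56 and 1.07 on normal diet. All 3 week arrays were above normal diet and all 7 week arrays below it, though 7 week replicate 3 and normal diet replicate 2 lay close together. Exoc6 was 10.7-fold lower at 7 weeks than at 3 weeks, a log2 difference of -3.43 ± 0.48 (limma, adjusted p = 0.00118), from -3.64 to -3.26 without each array in turn. This call passed in all 19 other settings tried.

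Against normal diet, Exoc6 fell 3.16-fold at 7 weeks (-1.66 ± 0.48; limma, adjusted p = 0.0319) and rose 3.40-fold at 3 weeks (1.76 ± 0.48; limma, adjusted p = 0.0475). Both calls were fragile. At 7 weeks the call was lost without normal diet replicate 1 (limma, adjusted p = 0.119) or 3 (0.11), 3 week replicate 1 (0.0515) and 7 week replicate 1 (0.0571) or 2 (0.0673). At 3 weeks it was lost without any one array other than 7 week replicate 1 (limma, adjusted p from 0.0506 to 0.124), and the difference was 1.17 without normal diet replicate 2. Against normal diet replicate 3 alone the values were -2.10 at 7 weeks (limma, adjusted p = 0.0884) and 1.32 at 3 weeks (limma, adjusted p = 0.367).

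Probes were also counted on their own. Of the 11 probes, 4 passed at 7 weeks against normal diet, all lower, where 30.3% of all probes passed and 16.8% were lower: one each of Tfrc, Steap3, Slc11a2 and Exoc6. At 3 weeks 2 of 11 passed, where 13.2% of all probes did (3.42% higher and 9.78% lower), Exoc6 higher and Slc11a2 lower. Between 7 and 3 weeks 6 of 11 passed, where 39.6% of all probes did and 17.7% were lower, all of them lower at 7 weeks: 2 of the Tfrc probes, 1 of Steap3, and those of Exoc6, Snx3 and Hfe. Normal diet replicate 2 had the lowest normal diet level on the 3 Tfrc probes, the dimmer probes of Slc11a2 and Steap3, Exoc6 and Snx3.

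Other genes of the pathway were taken from 4 lists of known parts, 58 genes in all, of which 53 were tested. In these, 1 rose and 12 fell at 7 weeks against normal diet, 4 rose and 4 fell at 3 weeks, and 8 were higher and 9 lower at 7 weeks than at 3 weeks. The median difference over the 53 was -0.36 at 7 weeks and -0.28 at 3 weeks against normal diet, and -0.15 between the times. Of all genes, 10.7% rose and 18.7% fell at 7 weeks against normal diet, 3.52% rose and 7.88% fell at 3 weeks, and 17.5% were higher and 19.6% lower at 7 weeks than at 3 weeks. The counts of each list below stand beside these shares.

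Uptake through clathrin-coated pits was represented by 12 genes, all tested. Of them 1 fell at 7 weeks, and 1 rose and 2 fell at 3 weeks, against normal diet. Between the times 5 were higher and 1 lower at 7 weeks than at 3 weeks, where 17.5% of all genes were higher and 19.6% lower. Cltc, the clathrin heavy chain, fell at 3 weeks (-1.29 ± 0.27; limma, adjusted p = 0.0231), as did Ap2a1, an alpha subunit of the AP2 adaptor that binds the receptor's tail (-1.42 ± 0.31; limma, adjusted p = 0.0245). Ap2a2, the other alpha subunit, rose at 3 weeks (1.09 ± 0.29; limma, adjusted p = 0.0459), fell at 7 weeks (-0.91 ± 0.29; limma, adjusted p = 0.0457) and was 4.001-fold lower at 7 weeks than at 3 weeks (limma, adjusted p = 0.00138). Ap2a1 was higher at 7 weeks than at 3 weeks by 2.29 ± 0.31 (limma, adjusted p = 0.000999), and the smaller subunits Ap2s1 by 1.35 ± 0.30 (limma, adjusted p = 0.0084) and Ap2m1 by 1.15 ± 0.32 (limma, adjusted p = 0.0217). Dnm2, the dynamin that cuts the vesicle free, was higher by 1.41 ± 0.42 (limma, adjusted p = 0.0286) and Cltc by 0.90 ± 0.27 (limma, adjusted p = 0.03). The difference of Cltc between the times turned to -0.06 with no scaling between arrays. In that setting Ap2s1, Ap2m1 and Dnm2 were at 0.39, 0.19 and 0.45 and did not pass (limma, adjusted p of 0.41, 0.692 and 0.364). Ap2a1 still passed, at 1.32 (limma, adjusted p = 0.0114). The differences of Ap2m1 against normal diet, 0.14 ± 0.32 at 7 weeks and -1.01 ± 0.32 at 3 weeks, did not pass (limma, adjusted p of 0.758 and 0.0738).

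Endosome sorting and recycling was represented by 21 genes, 20 of them tested. At 7 weeks 8 of the 20 fell against normal diet, with a median of -1.14, where 18.7% of all genes fell. Vps35, the core of the retromer coat that works with Snx3 in returning the receptor, fell by 2.63 ± 0.35 (limma, adjusted p = 0.00243), and it was lower at 7 weeks than at 3 weeks too (-3.20 ± 0.35; limma, adjusted p = 0.000509). Rab5c, a small GTPase of early endosomes, fell by 2.11 ± 0.55 (limma, adjusted p = 0.0217) and Rab12, a GTPase known for receptor turnover, fell by 2.02 ± 0.44 (limma, adjusted p = 0.0113). Of the 7 other exocyst subunits, partners of Exoc6, Exoc2 and Exoc7 fell (-1.34 ± 0.40; limma, adjusted p = 0.0342, and -1.32 ± 0.36; limma, adjusted p = 0.0243). The other 5 did not pass: Exoc1 was at -0.31, Exoc3 at -0.90, Exoc4 at 0.63, Exoc5 at -0.82 and Exoc8 at -1.79 (limma, adjusted p from 0.0668 to 0.433). Vamp3, a vesicle fusion protein of recycling endosomes, followed the direction of Exoc6: it fell at 7 weeks (-1.27 ± 0.35; limma, adjusted p = 0.0262), rose at 3 weeks (1.53 ± 0.35; limma, adjusted p = 0.0275) and was lower at 7 weeks than at 3 weeks (-2.80 ± 0.35; limma, adjusted p = 0.000778). The smaller retromer subunit Vps29 (-1.23 ± 0.35; limma, adjusted p = 0.0305) and the GTPase gene Arf6 (-1.13 ± 0.29; limma, adjusted p = 0.0192) were the other 2 that fell.

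At 3 weeks, 1 gene of the recycling list rose and 2 fell against normal diet. Rab5b, another early endosome GTPase, fell by 2.91 ± 0.44 (limma, adjusted p = 0.00959), and Ehd1, an ATPase that shapes recycling tubules, fell by 1.32 ± 0.34 (limma, adjusted p = 0.0392). Between the times 2 were higher and 3 lower at 7 weeks than at 3 weeks. The higher were Rab5b (1.92 ± 0.44; limma, adjusted p = 0.00902) and Ehd1 (1.69 ± 0.34; limma, adjusted p = 0.00536), and Exoc7 (-1.53 ± 0.36; limma, adjusted p = 0.0101) was lower along with Vps35 and Vamp3. With no scaling between arrays Rab5b was at 0.95 and Ehd1 at 0.73, and neither passed (limma, adjusted p of 0.0899 and 0.157). Rab11a, a GTPase of the recycling endosome, differed from normal diet by 1.37 ± 0.47 at 7 weeks (limma, adjusted p = 0.054) and 0.71 ± 0.47 at 3 weeks (limma, adjusted p = 0.342).

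**Figure D4:**
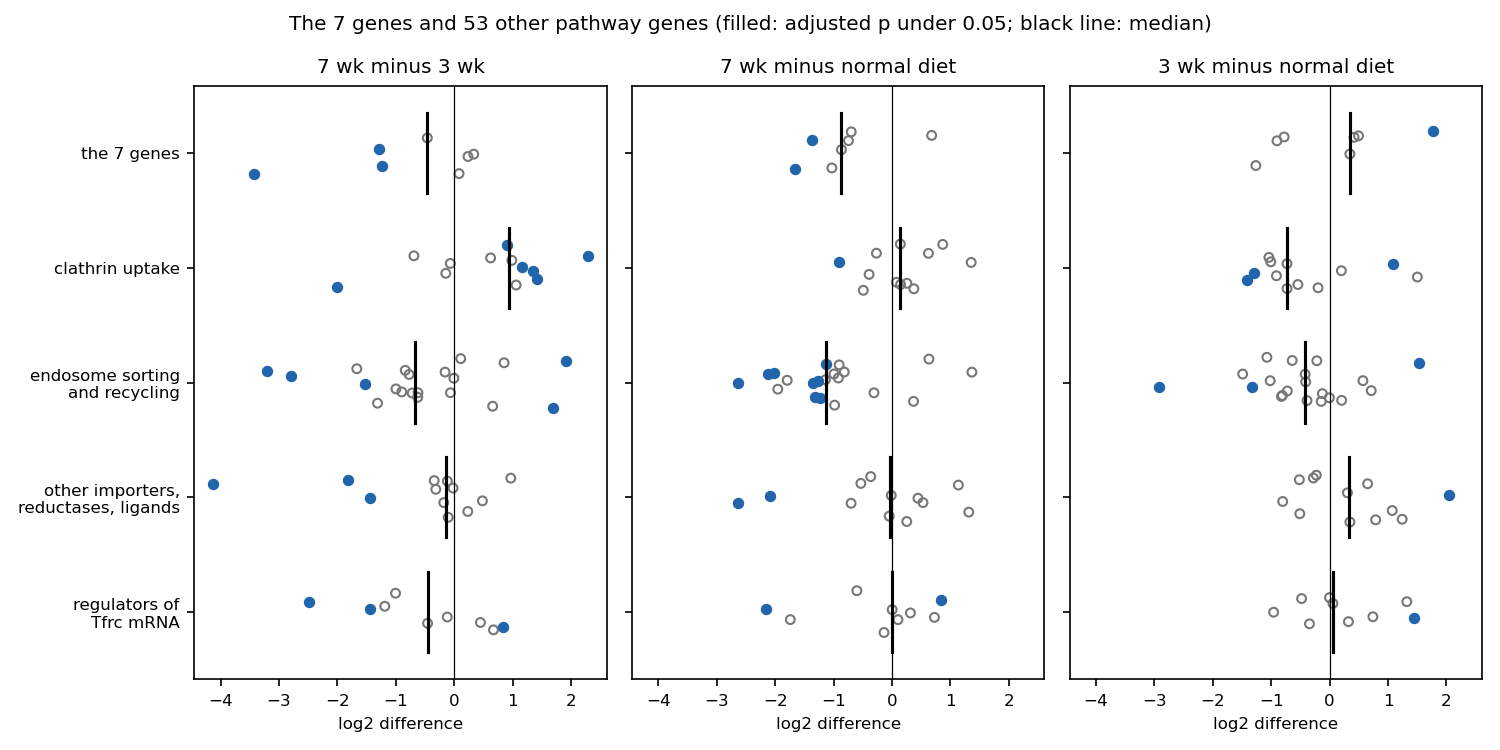
Log2 difference (horizontal axes) of the 7 genes and of the 53 other tested pathway genes in their 4 lists, for 7 weeks minus 3 weeks, 7 weeks minus normal diet and 3 weeks minus normal diet. Each point is a gene, filled where it passed an adjusted p of 0.05 over all genes, and the black line is the median of the row. The recycling list has 8 filled points at 7 weeks against normal diet, all below 0.

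Other iron importers, reductases and ligands were 15 genes, 12 of them tested. At 7 weeks 2 fell and at 3 weeks 1 rose against normal diet, and 3 were lower at 7 weeks than at 3 weeks, where 18.7% of all genes fell, 3.52% rose and 19.6% were lower. Slc11a1, the phagosomal relative of Slc11a2 known from macrophages, fell at 7 weeks (-2.09 ± 0.49; limma, adjusted p = 0.0151), rose at 3 weeks (2.04 ± 0.49; limma, adjusted p = 0.032) and was lower at 7 weeks than at 3 weeks (-4.13 ± 0.49; limma, adjusted p = 0.000675). Slc11a1 was dim at 7 weeks, with a mean level of -2.46, and was not well above background on every array. Slc39a8, a metal importer of the ZIP family, fell by 2.63 ± 0.61 at 7 weeks (limma, adjusted p = 0.0141) and was lower than at 3 weeks (-1.82 ± 0.61; limma, adjusted p = 0.0425). Trf, the gene of transferrin itself, was lower at 7 weeks than at 3 weeks (-1.44 ± 0.36; limma, adjusted p = 0.0144). Mcoln1, an endolysosomal channel that passes iron, differed from normal diet by -0.01 ± 0.32 at 7 weeks and 0.31 ± 0.32 at 3 weeks, and Slc39a14, an importer of iron not bound to transferrin, by 1.14 ± 1.01 and 1.24 ± 1.01. None of these 4 differences passed (limma, adjusted p from 0.415 to 0.98).

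Regulators of Tfrc mRNA were 10 genes, 9 of them tested. At 7 weeks 1 rose and 1 fell, at 3 weeks 1 rose, and between the times 1 was higher and 2 were lower at 7 weeks, where 17.5% of all genes were higher and 19.6% lower. Ireb2 and Aco1, the iron regulatory proteins, did not pass in any comparison: Ireb2 differed from normal diet by -0.14 ± 0.55 at 7 weeks and 0.32 ± 0.55 at 3 weeks, and Aco1 by 0.73 ± 0.31 and 0.06 ± 0.31. Stat5a, a transcription factor downstream of erythropoietin, fell at 7 weeks (-2.15 ± 0.53; limma, adjusted p = 0.0175), and its relative Stat5b rose (0.83 ± 0.25; limma, adjusted p = 0.0351), a difference of 0.03 with no scaling between arrays. Stat5b was also higher at 7 weeks than at 3 weeks (0.83 ± 0.25; limma, adjusted p = 0.028), where it was at -0.13 with no scaling. Myc, a transcription factor known to act on Tfrc, rose at 3 weeks (1.45 ± 0.38; limma, adjusted p = 0.0417) and was lower at 7 weeks than at 3 weeks (-1.44 ± 0.38; limma, adjusted p = 0.017). Fbxl5, which targets the iron regulatory proteins for degradation, was lower at 7 weeks than at 3 weeks (-2.48 ± 0.71; limma, adjusted p = 0.024). Its mean level at 7 weeks was -2.93, and it was not well above background on every array.

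Many calls of the pathway lists were lost when an array was left out. Without each array in turn, 1 of the 13 calls at 7 weeks against normal diet (Vps35) and 1 of the 8 at 3 weeks (Rab5b) held throughout, as did 9 of the 17 between the times. Over all settings, Vps35 at 7 weeks ran from -3.44 to -2.32, and Rab5b at 3 weeks from -3.20 to -0.87. With all probes of a gene averaged in place of the brightest, the differences of Ap2m1, Cltc, Dnm2 and Rab5b between the times turned to -0.54, -0.67, -0.53 and -0.17. Against normal diet replicate 3 alone none of the calls against normal diet was kept (limma, adjusted p from 0.0636 to 0.52), with 1 control array to test against. The differences kept their direction in all 13 at 7 weeks and all 8 at 3 weeks, and were at least as large in 9 of the 13 and 2 of the 8. Vps35 was at -2.73 and Cltc, at 3 weeks, at -1.50. Those smaller by over 1.5 times were Stat5a (-1.22) and Vps29 (-0.55) at 7 weeks and Vamp3 (0.99) at 3 weeks.

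Markers of other cell types moved with some of these results. At 7 weeks against 3 weeks, 5 of 6 tested monocyte and macrophage markers were lower (Csf1r, at 0.00 ± 0.38, did not pass), and their summed log2 level was 3.48 to 3.85 at 7 weeks, 5.62 to 6.17 at 3 weeks and 4.75 to 5.32 on normal diet. Group means ran in the same order, 3 weeks highest and 7 weeks lowest, for 3 of the 7 genes (Exoc6, Snx3 and Hfe), for both dimmer Tfrc probes and for 10 of the 53 pathway genes, as for 22.5% of all genes. The 10 were Vps35, Ap2a2, Exoc7, Fbxl5, Vamp3, Slc11a1, Trf, Cltb, Mcoln1 and Ireb2, of which the last 3 passed in no comparison. Of 8 neutrophil markers 2 were higher and 3 lower at 7 weeks than at 3 weeks, with a summed level of 8.44 to 9.12 at 7 weeks, 8.08 to 8.78 at 3 weeks and 7.73 to 9.20 on normal diet. Of 6 B lineage markers 1 was higher and 1 lower, with a summed level of 1.74 to 3.25 at 7 weeks, 3.16 to 4.42 at 3 weeks and 2.08 to 2.78 on normal diet. Megakaryocyte markers (1 of 5 lower) had a summed level of 2.45 to 5.26, 4.38 to 6.02 and 4.16 to 5.67 in the same order of groups, and mast cell, basophil and eosinophil markers (1 of 5 lower) one of -0.95 to -0.60, -0.82 to 4.61 and 3.73 to 4.57. Those of T and NK cells (1 of 5 higher) were at 3.77 to 3.83, 3.44 to 3.98 and 3.82 to 3.97. Among the 10 erythroid markers, 4 were higher and 1 lower at 7 weeks than at 3 weeks. At 7 weeks against normal diet, 3 monocyte and macrophage markers and 2 of mast cells, basophils and eosinophils fell. So did 2 erythroid, 1 B lineage and 1 megakaryocyte marker, while 3 erythroid, 1 neutrophil and 1 B lineage marker rose. After 3 weeks, 3 monocyte and macrophage, 2 neutrophil and 2 B lineage markers rose against normal diet, and no marker fell. The part of these cells in the results on the 7 genes was not tested.

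The genes whose 9 array values ran most like those of each member were found by Pearson r over the 14497 other tested genes. Rab11a was most like Tfrc (r = 0.95), and Rictor was also among the 3 most alike. Slc31a1, a copper importer, was most like Tfr2 (0.98), followed by Acly. For Slc11a2 they were Tmem30a (0.99), Klhl12 and Tmem161a, and for Steap3 Rnf220 (0.97), Psmg2 and Triap1. Exoc6 ran with 4930444G20Rik (0.99), Top2a, a topoisomerase of dividing cells, and Rabggtb, while Snx3 ran with Rars (0.99), Med13l and Emc3. Hfe ran with Tpd52 (0.96), Cytip and Pik3ip1. These 9 arrays form 3 groups, so high values of r can come from a shared order of groups as well as from arrays within a group. For Tfrc the groups overlapped. The values of r are given without a test.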

How the data were processed

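Total RNA of sorted erythroblasts was amplified, labelled with Cy3 and hybridised to single-colour arrays, per the labels' protocols. In the deposited scanner files each spot has an intensity, background-subtracted by the scanner software and not scaled between arrays, per the file headers. The deposited series table holds log2 values centred on each probe's median, with the scaling between arrays before that not given in the sources used here, and was used as an alternative. On each array it followed the 75th percentile values, centred in the same way, at r of 0.997 to 0.999. The slopes were 0.995 to 1.002, so this alternative is close to the main setting. Here, log2 processed intensity minus the array's 75th percentile was averaged for each probe over its spots, outlier spots left out. Of the 55681 non-control probes, 26413 were named through their RefSeq accession and GRCm38.p6 gene names, and 984 with no usable spot on some array were left out. A probe was tested when well above background on all 3 arrays of a group.

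The 9 arrays were fitted in 1 limma model (limma 3.58.1, R 4.3.3, lmFit and eBayes, two-sided, Benjamini-Hochberg), with the probe of brightest mean for each gene, and again over all probes. The fit was tested on simulated data. Distances between probes were compared by exact permutation tests over arrays. No mean-signal column was in the scanner files, so the normexp alternative (offset 50) used the median signals and was chosen after seeing the data. Alternatives were quantile normalization, no scaling, the series table, other filters on dim probes, the mean over probes, a replicate block, only the 2 groups compared, normal diet replicate 3 as the lone control, and leaving out each array. Samples of the same replicate number correlated at -0.17 to 0.29 in their deviations from the group means, so the numbers were not taken as pairs. The number of arrays limits the precision.

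The members and all lists were chosen with earlier results of these data known. Genes named are all members, of each pathway list the first 2 and at most the 5 with the largest difference past the threshold per comparison, and for each member the 3 genes of highest r, of which 1 for Tfrc and 1 for Tfr2 are not reported here. Vps29, Arf6, Csf1r and Eif2s3y were added after their values were seen. March8, Steap1, Steap4, Cybrd1 and Zc3h12a were listed and not tested.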

Additional observations from a re-analysis of the deposited data

Results flagged for a closer look

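For 3 of the 7 genes the differences from normal diet at 7 and at 3 weeks were themselves different, by limma's test of 7 weeks against 3 weeks, which is the test of the difference between the 2 times on the diet and uses no normal diet array in the difference itself. Exoc6 differed by -3.43 (limma, adjusted p = 0.00118), Snx3 by -1.28 (limma, adjusted p = 0.011) and Hfe by -1.24 (limma, adjusted p = 0.0274), each lower on all 3 arrays at 7 weeks than on any at 3 weeks. Of all genes, 37.2% passed this test.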

How the results depend on the processing

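The counts of the 7 genes past the threshold moved most in the comparisons with normal diet. At 3 weeks, against 1 gene, 2 passed after quantile normalization, 3 with normexp, 3 with only the 2 groups compared and 2 among probes well above background on all arrays, while 0 passed with no scaling, no filter on dim probes, the mean over probes or replicate 3 as the lone normal diet array, and 0 to 3 when an array was left out. At 7 weeks, against 2 genes, 6 passed with no scaling, 0 with replicate 3 as the lone normal diet array, 1 with only the 2 groups compared, and 1 to 4 when an array was left out. Between the times the count was 3, and 2 to 3 when an array was left out.

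Of the 11 probes, 2 passed at 3 weeks, against 0 with no scaling, no filter or replicate 3 as the lone normal diet array, 1 in the series table, and 0 to 3 when an array was left out. At 7 weeks 4 passed, against 10 with no scaling, 0 with replicate 3 as the lone normal diet array, 2 with only the 2 groups compared, and 1 to 5 when an array was left out. Between the times 6 passed, and 4 to 6 when an array was left out. Of the 53 pathway genes, 8 passed at 3 weeks, against 4 with no scaling, 5 with no filter, 5 with the mean over probes, 0 with replicate 3 as the lone normal diet array, 19 with only the 2 groups compared, and 1 to 17 when an array was left out. At 7 weeks 13 passed, against 28 with no scaling, 0 with replicate 3 as the lone normal diet array, 6 with only the 2 groups compared, and 1 to 21 when an array was left out. Between the times 17 passed, against 26 with no scaling and 10 to 20 when an array was left out.

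With a replicate block, where the replicate numbers were not shown to pair the arrays, the number of probes past the threshold at 3 weeks was 1 and that of pathway genes 5, and no other count of calls moved by over 1.5 times. The slide could not be fitted as a block, since each slide holds 1 group.

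Among the 7 genes and 11 probes, directions turned in values that had not passed; among the pathway genes, 5 of the 17 calls between the times (Cltc, Ap2m1, Dnm2, Rab5b and Stat5b) turned in some setting. After quantile normalization the brightest Tfrc probe was at -0.78 between the times and the second Slc11a2 probe at 0.0183 at 3 weeks. With no scaling these were at -0.63 and 0.15, the brightest Tfrc probe was at -0.13 at 7 weeks, and Tfr2 and Steap3 were at -0.73 and -0.88 between the times. The second Slc11a2 probe was at 0.0311 at 3 weeks in the series table. With the mean over probes, Tfrc was at -0.80 at 7 weeks and -1.21 between the times, and Steap3 at -1.65 between the times (limma, adjusted p = 0.0334). With replicate 3 as the lone normal diet array, Tfrc at 3 weeks was at -0.15 by its brightest probe and -0.0486 by A_51_P167876. With an array left out, the second Slc11a2 probe at 3 weeks ran from -0.132 to 0.106, A_51_P167876 of Tfrc at 3 weeks from -0.258 to 0.682, and between the times Tfrc from -0.0563 to 0.63, Tfr2 from -0.0746 to 0.651 and Steap3 from -0.0871 to 0.295. The cause was not tested. Over all settings, 340 of the 399 values of the 7 genes kept their direction and side of the threshold.

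The number of arrays limits the precision, and at 7 weeks fewer spots were well above background. A lone control is assumed to vary like the other groups.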
